A study of Mus musculus with 10 samples.

Results

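The genes described here are the 9 mouse genes of the colony-stimulating factors (CSFs), their receptors and interleukin 34, taken by symbol from a table of 55487 gene rows: 4 ligand genes (Csf1, Il34, Csf2 and Csf3) and 5 receptor genes (Csf1r, Csf2ra, Csf2rb, Csf2rb2 and Csf3r). Each symbol matched 1 row, and all 9 passed the filter on low values, which 13930 genes passed. The study asked what phosphorylation of a serine of Pep, the tyrosine phosphatase encoded by Ptpn22, does in CD8+ T cells that enter a tumour. It compared S452A mice, in which that serine is replaced by alanine, with wild-type (WT) mice, 5 mice of each genotype. All 10 mice received MC38 cells, a colon carcinoma line, at 8 weeks of age, and the tumours were taken after 18 days, digested with collagenase and sorted for CD8+ T cells, with 1 library of bulk RNA per mouse. The sources used here do not give sex, strain or how the allele was made, and the design text numbers the serine differently from the title and the labels.

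CSFs are secreted proteins that keep myeloid cells alive and drive their growth and differentiation. Csf1 (M-CSF) and Il34 are ligands of 1 receptor, the tyrosine kinase Csf1r, on which most tissue and tumour macrophages depend. Csf2 (GM-CSF) binds the alpha chain Csf2ra, which signals through the shared beta chain Csf2rb to the kinase Jak2 and the factors Stat5a and Stat5b. Csf2rb also serves the receptors for interleukins 3 and 5, and mice carry a near copy of it, Csf2rb2, that works with the interleukin 3 receptor only. Csf3 (G-CSF) binds Csf3r, the receptor best known from neutrophils and their precursors, and activated T cells are a classic source of Csf2.

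The libraries labelled as CD8+ T cells carried far more of the macrophage than of the T cell marker transcripts. The 14 macrophage markers summed to 19623 to 25342 TPM (a transcript abundance scaled to gene length and to the library total) in S452A and to 18794 to 25878 TPM in WT libraries. The 10 CD8 T cell markers summed to 20.5 to 172 TPM in S452A and to 17.9 to 148 TPM in WT libraries. Among the 11 neutrophil markers, which summed to 21.5 to 47.8 TPM in S452A and to 12.5 to 34.7 TPM in WT libraries, Ly6g was listed at 0 throughout. Mpo, Cxcr2, Elane and Camp reached at most 0.60, 0.50, 0.39 and 0.23 TPM. Ltf, Ngp and Retnlg reached at most 3.08, 2.89 and 2.76 TPM. The highest levels of S100a9, Mmp8 and S100a8 were 18.85, 14.69 and 14.12 TPM, so neutrophil marker transcripts were not absent. The 10 fibroblast markers summed to 79.7 to 235 TPM in S452A and to 176 to 331 TPM in WT libraries. TPM keeps no read counts, so the sequencing depth is unknown. In bulk RNA, fewer cells of a type and less RNA per cell cannot be told apart.

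Csf2rb and Csf2rb2 are close enough for reads to be shared between them, which bears on every value given for the pair. They lie on opposite strands of chromosome 15 (GRCm38), Csf2rb (ENSMUSG00000071713.6) from 78325752 to 78353847 and Csf2rb2 (ENSMUSG00000071714.7) from 78282507 to 78305721, with 20030 bases between them. Their coding sequences of 2688 and 2634 bases were 95.2% identical over 2628 aligned bases, with an identical run of up to 242 bases. Of all stretches of 100 bases in the coding sequence of Csf2rb2, 11.3% also occurred in Csf2rb, and a read inside one cannot be placed by sequence. The share depends on the length, and was 26.6% for stretches of 50 bases and 6.64% for stretches of 150 bases. The stretches of 120 bases with the most differences inside 1 exon are shown, with the 16 bases that differ in capitals. They come from chr15:78338867-78338986 (plus strand) for Csf2rb and chr15:78294345-78294464 (minus strand) for Csf2rb2, read 5′ to 3′ from the GENCODE M21 transcripts.
Csf2rb: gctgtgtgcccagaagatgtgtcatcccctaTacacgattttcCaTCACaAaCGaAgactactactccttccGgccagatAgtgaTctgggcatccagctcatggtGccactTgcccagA
Csf2rb2: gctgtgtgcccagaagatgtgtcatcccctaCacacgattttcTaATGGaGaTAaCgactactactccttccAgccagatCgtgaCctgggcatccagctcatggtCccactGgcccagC

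Promoters in RefSeq (GRCm38.p6, 250 bases before to 50 after the start) were at hand for 5 of the 9 genes, and 4 are shown because motifs of factors tied to this system occur in them. The consensus kappaB motif of NF-kB, the factor downstream of Tnf and Il1b, whose letters are the capitals of the Csf1 promoter read on the other strand, was searched on both strands and found in 51 of 32851 promoters (0.16%). The promoter of Csf1 holds it once, on the reverse strand, at position -154 from the start, and it was in none of the other 4. GAGGAA, searched on both strands as the core motif of PU.1, the myeloid factor encoded by Spi1 and known to act on CSF receptor genes, was in 28.3% of all promoters, so that a match is common. It occurred at 2 adjoining places in the promoter of Csf2ra, at 2 separate places in that of Csf2rb2 and once in that of Csf3r, and not in those of Csf1 and Csf2. The Csf2 window (chr11:54249850-54250149, minus strand) lies wholly upstream of the GENCODE gene, which starts at 54249667. For Csf2, the lack of either searched sequence therefore does not cover the bases next to that start. A match is a description of the letters and says nothing of binding. Capitals mark the motif on either strand, NF-kB in Csf1 (chr3:107760420-107760719, minus strand) and PU.1 in Csf2ra (chr19:61228369-61228668, minus strand), Csf2rb2 (chr15:78305672-78305971, minus strand) and Csf3r (chr4:126024409-126024708, plus strand).
Csf1: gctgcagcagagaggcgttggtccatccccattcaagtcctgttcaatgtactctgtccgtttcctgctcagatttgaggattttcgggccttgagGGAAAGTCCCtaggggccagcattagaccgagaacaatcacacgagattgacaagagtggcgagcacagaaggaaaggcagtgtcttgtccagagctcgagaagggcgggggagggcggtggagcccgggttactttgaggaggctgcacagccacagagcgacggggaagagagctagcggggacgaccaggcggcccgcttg
Csf2ra: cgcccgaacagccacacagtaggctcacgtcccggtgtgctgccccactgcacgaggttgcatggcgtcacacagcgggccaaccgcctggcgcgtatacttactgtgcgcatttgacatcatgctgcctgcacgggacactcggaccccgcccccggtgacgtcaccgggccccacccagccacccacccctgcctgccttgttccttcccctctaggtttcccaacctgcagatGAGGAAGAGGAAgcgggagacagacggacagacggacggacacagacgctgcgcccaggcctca
Csf2rb2: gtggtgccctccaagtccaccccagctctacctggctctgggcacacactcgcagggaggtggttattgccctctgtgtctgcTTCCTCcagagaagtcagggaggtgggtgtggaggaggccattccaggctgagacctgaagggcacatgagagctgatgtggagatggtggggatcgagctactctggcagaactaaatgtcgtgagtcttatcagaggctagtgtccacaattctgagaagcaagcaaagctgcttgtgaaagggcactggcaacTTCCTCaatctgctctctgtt
Csf3r: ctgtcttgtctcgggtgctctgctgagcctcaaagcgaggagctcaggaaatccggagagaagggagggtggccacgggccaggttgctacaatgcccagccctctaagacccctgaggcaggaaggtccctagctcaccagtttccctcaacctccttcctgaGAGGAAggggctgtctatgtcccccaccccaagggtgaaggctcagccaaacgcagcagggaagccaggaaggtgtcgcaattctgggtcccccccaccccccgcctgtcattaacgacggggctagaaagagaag

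**Figure D1:**
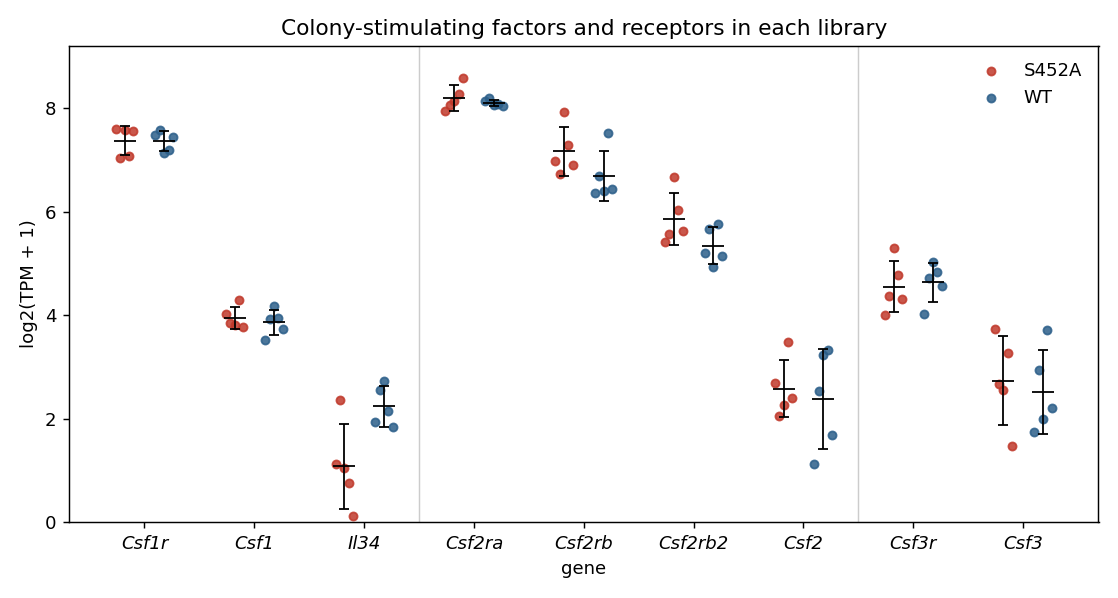
Levels of the 9 genes as log2(TPM + 1), with 1 point per library, S452A in red and WT in blue, and black bars for the mean and SD of 5 libraries. Receptor genes except Csf3r lie above every ligand gene, and Il34 is the only gene with most S452A libraries below all WT libraries.

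In the Csf1r axis, the receptor gene was abundant in every library and its genotype means were close, Csf1 was present at a lower level, and Il34 was scarce and lower in most S452A libraries without passing the test over all genes. Csf1r (ENSMUSG00000024621.16, chromosome 18, 61100598 to 61132149) was at 191.8, 131, 189.5, 134 and 188 TPM in S452A libraries 1 to 5, against 177, 191, 139, 145 and 173 TPM in WT libraries 1 to 5. S452A libraries 2 and 4 and WT libraries 3 and 4 were the lower ones, and the ranges overlapped. The log2 difference, S452A minus WT on the log2(TPM + 1) scale, came to 0.0050 (SE 0.14, 95% interval -0.31 to 0.32, limma adjusted p = 0.999). The 3′ part of Csf1r overlaps Hmgxb3 on the other strand, which was at 4.54 to 6.94 TPM, and the sources used here do not say whether the authors' counting used strand.

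Csf1 (ENSMUSG00000014599.10, chromosome 3, 107741048 to 107760469), which encodes the main ligand of Csf1r, was at 15.2, 13.4, 13.1, 18.6 and 12.7 TPM in S452A libraries 1 to 5, against 10.5, 14.2, 17.2, 14.4 and 12.4 TPM in WT libraries 1 to 5. The groups overlapped, with the highest value in S452A library 4 and the lowest in WT library 1. Csf1 differed on the log2 scale by 0.09 (SE 0.16, 95% interval -0.25 to 0.42, limma adjusted p = 0.966). Each library held 7.22 to 16.9 TPM of Csf1r per TPM of Csf1. The log2 ratio of Csf1 to Csf1r averaged -3.42 ± 0.43 in S452A and -3.50 ± 0.40 in WT libraries (SD, n = 5 each, 2-sided exact permutation p = 0.746, adjusted over 4 measures 0.818).

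Il34 (ENSMUSG00000031750.15, chromosome 8, 110741829 to 110805924), the other Csf1r ligand, known in the mouse from neurons and keratinocytes, was at 1.17, 4.14, 1.08, 0.68 and 0.09 TPM in S452A libraries 1 to 5. WT libraries 1 to 5 had 2.81, 4.85, 5.62, 3.42 and 2.56 TPM of it. Of the S452A libraries, 4 lay below every WT library, and S452A library 2 lay among the WT libraries. Il34 averaged 1.43 ± 1.57 TPM in S452A and 3.85 ± 1.33 TPM in WT libraries (SD, n = 5 each), a log2 difference of -1.15 (SE 0.36, 95% interval -1.94 to -0.37). The 2-sided exact permutation p was 0.0317, where 0.00794 is the smallest the design allows, but the limma p of 0.00755 became 0.952 after adjustment over all genes. At this low level the size depends on the pseudocount, and the log2 difference was -1.94 with 0.1 and -0.48 with 5 in place of 1, again not passing. Of 10 fibroblast markers 9 had a negative difference (median -0.57), against 53.4% of all tested genes, and 3 had an unadjusted limma p under 0.05 in that direction, against 2.73% of all tested genes, and 0 passed. S452A library 2, the highest S452A library for Il34, was also the highest of that genotype for the summed fibroblast markers (235 TPM, against 79.7 to 191 TPM in the other S452A libraries). Of that sum, Dcn alone made up 136 TPM. Besides Dcn, only Pdgfra and Pdgfrb were highest in that library among S452A libraries, and the other listed markers, Col1a1 and Col1a2 among them, were not. S452A library 3 had the lowest sum (79.7 TPM) but more Il34 than S452A libraries 4 and 5. The part of fibroblast transcripts in the Il34 difference was not tested.

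In the GM-CSF receptor, the alpha chain gene was the most abundant of the 9 genes, both beta chain genes lay above the WT median in all 5 S452A libraries without passing, and Csf2 itself was low. Csf2ra (ENSMUSG00000059326.7, chromosome 19, 61223957 to 61228429) was at 245, 265, 279, 308 and 380.3 TPM in S452A libraries 1 to 5, against 280.1, 292, 264, 269 and 263 TPM in WT libraries 1 to 5. WT libraries stayed within a narrow band, and S452A libraries lay on both sides of it, with library 5 the highest. The genotypes differed by 0.09 on the log2 scale (SE 0.11, 95% interval -0.15 to 0.34, limma adjusted p = 0.958).

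Csf2rb, the signalling beta chain, was at 125, 105.5, 241, 155 and 118 TPM in S452A libraries 1 to 5, against 81.0, 103, 83.4, 182 and 85.5 TPM in WT libraries 1 to 5. All 5 S452A libraries lay above 4 of the 5 WT libraries, and WT library 4 overlapped them. The means were 149 ± 54.6 TPM in S452A and 107 ± 42.7 TPM in WT libraries (SD, n = 5 each). The log2 difference of Csf2rb was 0.48 (SE 0.25, 95% interval -0.07 to 1.04, limma adjusted p = 0.952, 2-sided exact permutation p = 0.151). It was 0.29 without S452A library 3, the highest library for this gene.

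Csf2rb2 was at 41.6, 46.7, 100.5, 64.8 and 48.4 TPM in S452A libraries 1 to 5, against 35.9, 50.02, 29.4, 53.6 and 34.3 TPM in WT libraries 1 to 5. S452A libraries 3 and 4 were above all WT libraries, and WT libraries 2 and 4 lay above the other 3 S452A libraries. For Csf2rb2 the log2 difference was 0.52 (SE 0.24, 95% interval 0.0010 to 1.04), with a limma p of 0.0496 that became 0.952 after adjustment over all genes and a 2-sided exact permutation p of 0.0873. It was 0.32 without S452A library 3.

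Since reads can be assigned to either copy, the pair was also measured as a sum. Csf2rb and Csf2rb2 summed to 209 ± 78.2 TPM in S452A and 147 ± 51.5 TPM in WT libraries (SD, n = 5 each), a log2 difference of 0.49 (2-sided exact permutation p = 0.143, adjusted over 4 measures 0.571). Without WT library 4 it was 0.68 (exact permutation p = 0.0238, not adjusted), and without S452A library 3 it was 0.30. Csf2rb2 made up 28.7 ± 2.22% of the sum in S452A and 28.2 ± 3.91% in WT libraries (SD, n = 5 each, exact permutation p = 0.818). The log2 ratio of Csf2rb to Csf2ra averaged -1.03 ± 0.55 in S452A and -1.42 ± 0.49 in WT libraries (SD, n = 5 each, exact permutation p = 0.286, adjusted over 4 measures 0.571). Csf2ra exceeded Csf2rb in every library, least so in S452A library 3, at a log2 ratio of -0.21, and in WT library 4, at -0.56.

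Csf2 (ENSMUSG00000018916.5, chromosome 11, 54247271 to 54249667), the ligand, was at 5.49, 3.15, 3.81, 10.1 and 4.26 TPM in S452A libraries 1 to 5, against 1.19, 4.78, 8.34, 9.06 and 2.23 TPM in WT libraries 1 to 5. The genotypes overlapped over most of the range. The log2 difference was 0.20 (SE 0.42, 95% interval -0.72 to 1.11, limma adjusted p = 0.971), so a change of more than 2-fold toward higher levels lies within the interval. T cells are a known source of Csf2, and its level had a Pearson r of 0.003 with the CD8 T cell markers across the 10 libraries (Spearman rho = -0.103, adjusted permutation p = 0.993 and 0.785), and of 0.096 without S452A library 1 and WT library 2. S452A library 4 had the most Csf2, with CD8 T cell markers summing to 39.8 TPM, against 20.5 to 172 TPM in the other S452A libraries.

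**Figure D2:**
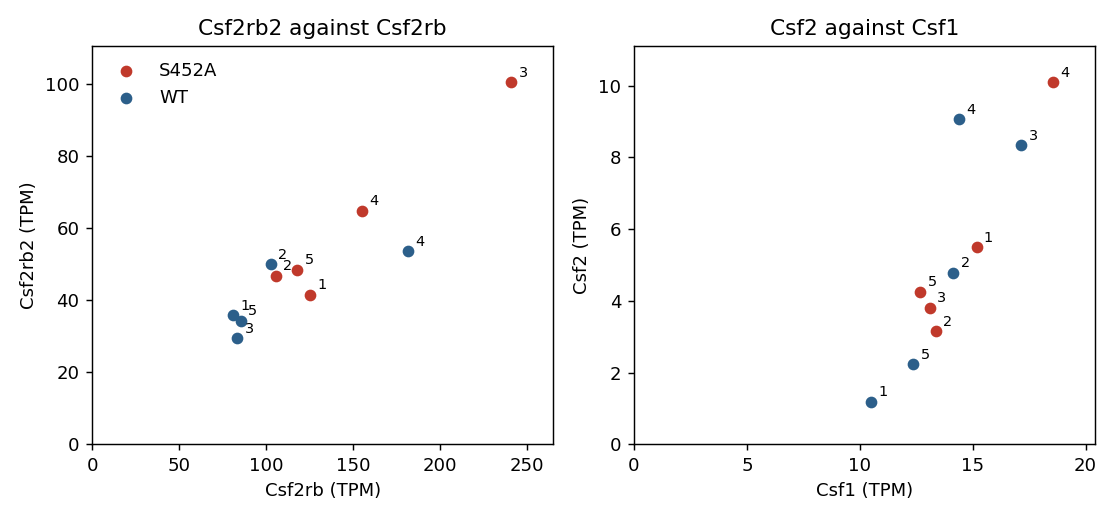
Left, Csf2rb2 against Csf2rb, and right, Csf2 against Csf1, in TPM, with 1 point per library, S452A in red and WT in blue, and the mouse number beside each point. S452A library 3 is highest for both beta chain genes, at 241 and 100.5 TPM, and S452A library 4 is highest for Csf1 and Csf2, at 18.6 and 10.1 TPM.

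In the G-CSF axis neither gene passed. Csf3r (ENSMUSG00000028859.14, chromosome 4, 126024550 to 126044440) was at 15.1, 19.7, 38.1, 26.3 and 18.7 TPM in S452A libraries 1 to 5, against 15.2, 25.4, 31.7, 27.4 and 22.6 TPM in WT libraries 1 to 5. S452A library 3 held the highest level and S452A library 1 the lowest, and the ranges overlapped. On the log2 scale Csf3r differed by -0.08 (SE 0.24, 95% interval -0.61 to 0.45, limma adjusted p = 0.978). AC105061.2, whose transcript matches 1518 of the 3481 bases of a Csf3r transcript at 96.8% identity, was at 0.54 to 3.58 TPM, so that some reads could belong to either. The mean of the neutrophil markers rested on the 3 of 11 that passed the filter, Mmp8, S100a8 and S100a9. It had a Pearson r of 0.330 with Csf3r (Spearman rho 0.358, adjusted permutation p = 0.462 and 0.592, n = 10). The r was 0.122 without S452A library 3 and WT library 5 and 0.435 with genotype means removed.

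Csf3 (ENSMUSG00000038067.2, chromosome 11, 98701263 to 98703629), the ligand of Csf3r, was at 12.2, 5.37, 4.88, 8.62 and 1.77 TPM in S452A libraries 1 to 5, against 2.35, 6.67, 2.97, 12.2 and 3.60 TPM in WT libraries 1 to 5. S452A library 1 and WT library 4 held the highest levels, and the ranges overlapped. Csf3 differed by 0.22 on the log2 scale (SE 0.44, 95% interval -0.75 to 1.18, limma adjusted p = 0.970).

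Across all 10 libraries the receptor genes summed to 547 to 848 TPM and the ligand genes to 16.9 to 39.1 TPM. By mean level the order was Csf2ra, Csf1r, Csf2rb, Csf2rb2, Csf3r, Csf1, Csf3, Csf2 and Il34. Csf2ra was above Csf1r, Csf2rb above Csf2rb2, and Csf1 above Csf3 in 10 of 10 libraries. Csf1r was above Csf2rb in 7 of 10 libraries, Csf3 above Csf2 in 7 and Csf2 above Il34 in 6, so these neighbours were not separated beyond their spread. Csf2rb2 was above Csf3r, and Csf3r above Csf1, in 9 of 10 libraries each. Relative variation over the 10 libraries was smallest for Csf2ra, Csf1r and Csf1 (coefficients of variation 13.3, 15.5 and 16.65%) and largest for Csf2, Csf3 and Il34 (57.2, 63.2 and 70.9%), the genes with the lowest levels.

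Of 8 relations among these genes and marker or pathway lists that were examined over the 10 libraries, 1 passed adjustment. Csf2rb2 followed Csf2rb (Pearson r = 0.910, Spearman rho = 0.842, adjusted permutation p = 0.00248 and 0.0290), also without the 2 libraries farthest from the median (r = 0.805) and within S452A and WT libraries alone (r = 0.950 and 0.816, n = 5 each). Shared reads of the copies can contribute to this relation, and their part was not tested. Csf1 had an r of 0.544 with the mean of the list of CSF inducers and NF-kB genes (rho 0.479, adjusted p = 0.260 and 0.592), and of 0.545 without S452A libraries 3 and 4. With the fibroblast markers Csf1 had an r of 0.339 (rho 0.321, adjusted p = 0.462 and 0.592), which was 0.080 without S452A library 3 and WT library 3, 0.593 with genotype means removed, 0.467 within S452A and 0.802 within WT libraries. With Csf1r its r was -0.518 (rho -0.236, adjusted p = 0.260 and 0.686), and -0.470 without S452A libraries 2 and 4. Csf1r had an r of 0.554 with the macrophage markers (rho 0.418, adjusted p = 0.260 and 0.592), which was -0.076 without S452A library 2 and WT library 3, and so rested on those libraries. With all libraries kept, this r was 0.558 with genotype means removed, 0.337 within S452A and 0.874 within WT libraries. Csf2ra and Csf2rb, which form 1 receptor, had an r of 0.088 (rho 0.152, adjusted p = 0.931 and 0.776), which was 0.341 without S452A library 3 and WT library 4.

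The genes whose levels were most like each CSF gene over the 10 libraries are given as a description, from 6729 candidates averaging at least 10 TPM and with no test. For Csf2rb they were Il1b, the gene of the inflammatory cytokine interleukin 1 beta (r = 0.972), Antxr2, an anthrax toxin receptor (0.971), and F10, coagulation factor X (0.964). For Csf2rb2 they were Chmp1b, Atp2b1 and Pnrc1 (0.948 to 0.963). For Csf1 they were Derl1 (0.950), Adrm1 (0.896) and Lancl2 (0.889), and for Csf2 they were Derl1 (0.923), Csf1 itself (0.909) and Capn1 (0.889), so that Csf1 and Csf2 shared their nearest gene. For Csf3 they were F13a1, a coagulation factor chain (0.954), Serpinb2, a plasminogen activator inhibitor (0.928), and Bst1 (0.915). For Csf3r they were Mmadhc, Slc28a2 and Igf2bp2 (0.899 to 0.966), and for Csf1r Ucp2, Pilra and Arl6ip6 (0.871 to 0.890). For Csf2ra they included Fos (0.868) and Ppp1r12c (0.862), and for Il34 they were Plod3, a collagen-modifying enzyme (0.891), Rabep2 (0.885) and Twistnb (0.866).

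**Figure D3:**
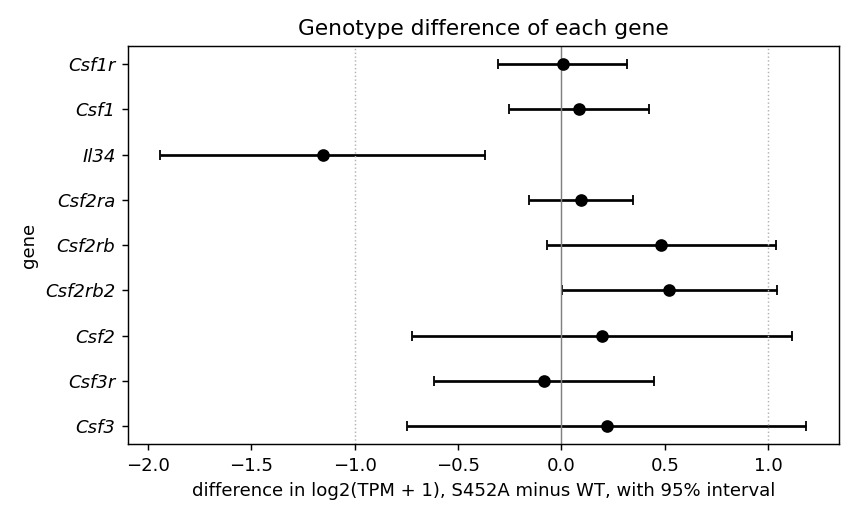
Genotype difference of each gene on the log2(TPM + 1) scale, S452A minus WT, with points for the limma estimate and bars for the 95% interval; dotted lines mark a 2-fold change. The interval of Il34 lies below 0 and that of Csf2rb2 just above it before adjustment over all genes, and those of the other 7 genes include 0.

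Set over all genes, 0 of the 9 passed in S452A against WT (limma adjusted p from 0.952 to 0.999), where 1 of 13930 tested genes did (0.00718%). At an unadjusted p under 0.05 there were 2, Il34 and Csf2rb2, against 4.74% of tested genes. Il34 kept such a p in the 17 of 17 limma alternatives that tested it, and Csf2rb2 in 9 of 18. For Csf2rb2, leaving out WT library 1, 3 or 5 or S452A library 3 or 4 ended it. So did a pseudocount of 0.1, no filter on low values, scaling by the median log2 ratio and the replicate block. By an exact Wilcoxon rank-sum test the unadjusted p was below 0.05 for 0 of the 9. That test could call a gene only with 2212 genes at its smallest p of 0.00794, which 90 genes reached, so its count of calls says nothing of these genes. The genotypes did not overlap for 0 of the 9, against 0.646% of tested genes. Differences were positive for 7 and negative for 2 (Il34 and Csf3r), against 46.6% positive over all tested genes, with a median of 0.09 for the 9 and -0.02 for all. The 95% interval left a 2-fold change either way outside for 4 of the 9, Csf1r, Csf1, Csf2ra and Csf3r, against 86.9% of tested genes.

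Signalling genes of these receptors did not pass in either direction. The counts of positive differences in these and the following lists stand beside a share of 46.6% over all tested genes. Of 22 genes of Csf1r signalling and shedding, all tested, 13 had a positive difference (median 0.02), and the count was 18 (median 0.0576) without S452A library 2 and 10 (median -0.0104) without S452A library 5. Among those of smallest p were Adam17, the protease that sheds Csf1r (0.23), and the kinase gene Syk (0.31), each with a limma adjusted p of 0.952. Of 15 JAK-STAT genes of the GM-CSF and G-CSF receptors 9 had a positive difference (median 0.07), with a median of 0.0247 without WT library 1, 0.0278 without WT library 5, 0.1352 without WT library 4 and 0.1235 without S452A library 1. Jak2, the kinase bound to Csf2rb, was at 52.9 ± 18.2 TPM in S452A and 42.02 ± 8.02 TPM in WT libraries (SD, n = 5 each), a log2 difference of 0.28. Stat5a differed by 0.26, Stat5b by -0.09, Stat3, the main factor downstream of Csf3r, by -0.04, Pim1, a kinase gene induced by Stat5, by 0.28, and Ptpn6, a phosphatase that dampens these receptors, by -0.27.

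Of 12 related growth factors and receptors, 6 were tested, and 3 of them had a positive difference (median 0.01). Leaving out 1 library gave medians on both sides of 0, from -0.0755 without S452A library 4 to 0.1294 without S452A library 5. Il3ra, the alpha chain that pairs with Csf2rb and Csf2rb2 for interleukin 3, was at 22.4 ± 5.24 TPM in S452A and 18.7 ± 2.24 TPM in WT libraries (SD, n = 5 each, log2 difference 0.23, limma adjusted p = 0.952). Flt3l, a ligand for dendritic cell growth, differed by -0.34 and Sdc1, a proteoglycan that binds Il34, by 0.35. Il5ra reached at most 0.17 TPM, Flt3 0.79 TPM and Kit 2.73 TPM, and these were not tested.

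Of 13 tested transcription factors of myeloid development (of 14 listed), 10 had a positive difference (median 0.11), and the count was 8 and the median 0.02 without S452A library 3. The median was also lower without S452A library 4 (0.0466), WT library 3 (0.0586) or WT library 5 (0.0470). Klf4, a monocyte factor, differed by 0.46, Egr2 by 0.46 and Irf8 by -0.23, and 0 passed (each with a limma adjusted p of 0.952). Spi1 was at 279.8 ± 41.9 TPM in S452A and 269 ± 33.4 TPM in WT libraries (SD, n = 5 each, log2 difference 0.06).

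Genes known to be raised by GM-CSF in myeloid cells, and those of the list of CSF inducers and NF-kB genes, mostly had positive differences, and 0 of either list passed. Of 11 genes of the first list 10 had a positive difference (median 0.30), against 46.6% of all tested genes. Of the 11, 2 had an unadjusted limma p under 0.05 in that direction, against 2.01% of all tested genes. Inhba, the activin A subunit gene, was at 145, 120.4, 205, 136 and 111 TPM in S452A libraries 1 to 5, against 66.7, 87.8, 84.8, 158 and 75.2 TPM in WT libraries 1 to 5 (log2 difference 0.63, SE 0.22, limma adjusted p = 0.952). As with Csf2rb, all 5 S452A libraries lay above 4 of the 5 WT libraries, and WT library 4 overlapped them. Bhlhe40, a factor downstream of GM-CSF, was at 192 ± 35.8 TPM in S452A and 148 ± 17.2 TPM in WT libraries (SD, n = 5 each, log2 difference 0.36, limma adjusted p = 0.952). Of 10 inducers of CSF genes and NF-kB genes, 10 had a positive difference (median 0.30), against 46.6% of all tested genes. Among them were Il1a at 0.68, Tnfaip3 at 0.43 and Il1b at 0.33 (each with a limma adjusted p of 0.952). Without S452A library 3, 9 of 11 and 9 of 10 were positive, with medians of 0.22 and 0.19. Without S452A library 4, 10 of 11 and 9 of 10 were positive, with medians of 0.20 and 0.20. Genes of 1 list can rise together in a library, so these counts are not of independent genes. The list of CSF inducers and NF-kB genes summed to 10845 and 10338 TPM in S452A libraries 3 and 4. It summed to 6183 to 7891 TPM in the other S452A libraries and to 5390 to 8265 TPM in WT libraries. Il1b is in both lists, and Pim1 and Cish of the first list are also JAK-STAT genes above. The direction of the NF-kB genes was already known from these libraries when the list was chosen.

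**Figure D4:**
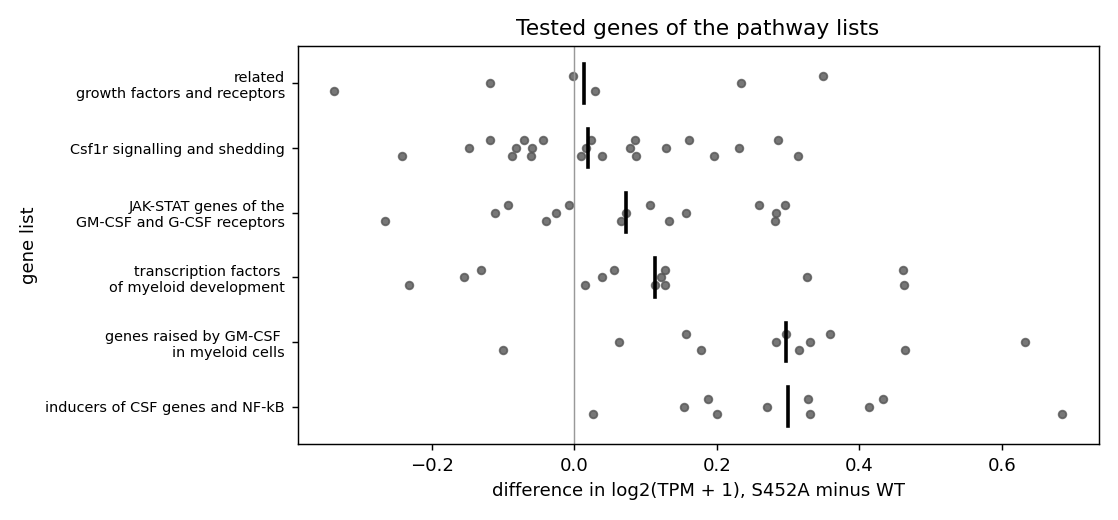
Log2 differences, S452A minus WT, of the tested genes of 6 pathway lists, with 1 point per gene and a bar for the median of each list. The medians run from 0.01 for related growth factors and receptors to 0.30 for the list of CSF inducers and NF-kB genes, and 0 genes shown passed adjustment over all genes.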

How the data were processed

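The tools named in the submitters' processing notes are STAR (2.7.9a) and RSEM (1.3.0), with the build GRCm38.p6; parameters and annotation release are not stated there. Expression was deposited by the authors as TPM, in 1 table, scaled to gene length and to 1000000 per library, so that counts, depth and counting error are unknown. Columns were matched to mice through the sample descriptions, and each library is 1 mouse. Labels' protocols give a directional kit and 40 ng of RNA.

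A gene was tested if 5 or more libraries reached 1 TPM, as log2(TPM + 1), in R 4.3.3 with limma 3.58.1 (trend, 2-sided, Benjamini-Hochberg over all tested genes, threshold 0.05), with genotype as the only term, after a check of the fit on simulated data. Fold changes on this scale understate those of low genes. Single measures had 2-sided exact permutation tests, and correlations had permutation tests with 100000 resamples (scipy 1.17.1, with numpy 2.4.6 and pandas 2.3.3, in Python 3.11.15; plots by matplotlib 3.10.9). Positions and transcripts are from GENCODE M21 (GRCm38), and copies were searched with blastn 2.17.0 (at least 90% identity over 200 bases).

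The genes and lists were chosen with earlier results of these data known. Named beyond the 9 genes are, per list, the 3 genes of smallest p, 9 signalling and receptor genes fixed with the lists, and per gene the 3 of highest Pearson r; 2 genes that this rule names are not reported here. Alternatives were other pseudocounts, filters and scalings, a block for the mouse number, each library left out in turn, robust moderation, a threshold of 0.1 and a rank test.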

Additional observations from a re-analysis of the deposited data

Results flagged for a closer look

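Within a genotype, 4 sets of 5 values held a library whose gap to the next exceeded 0.71 of the range (Dixon's test), of 26 sets examined, where chance gives about 1 in 20. Il34 was at 4.14 TPM in S452A library 2, and the next S452A library was at 1.17 TPM. Csf2rb was at 181.61 TPM in WT library 4, and the next WT library was at 102.67 TPM. The log2 ratio of Csf2rb to Csf2ra was -0.56 in the same library, against -1.50 in the next. The percent of Csf2rb2 in the pair was 24.89 in S452A library 1, against 29.12 in the next.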

How the results depend on the processing

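In each alternative run, 0 of those of the 9 genes that were tested passed, including the replicate block (0 of 9) and an adjusted p under 0.1. Il34 and Csf2 fell below the filter of 5 TPM in 5 libraries and were not tested in that run. The count of all genes passing was 1 in each alternative, the replicate block included, except 0 with a filter of 5 TPM in 5 libraries and 0 with the rank test (460 and 445 genes at an unadjusted p under 0.05), whose smallest p cannot pass adjustment unless 2212 genes reach it. Il34 stayed negative in 17 of 17 alternatives (-1.94 to -0.48), and Csf2rb and Csf2rb2 stayed positive in 18 of 18 (0.29 to 0.69 and 0.32 to 0.63). Small differences changed sign when 1 library was left out: Csf1r (-0.0552 to 0.0869, and -0.015 with quantile normalization), Csf1 (-0.0002 to 0.16), Csf2ra (-0.0006 to 0.16), Csf3r (-0.27 to 0.0517), Csf2 (-0.12 to 0.43), Csf3 (-0.0286 to 0.53), the log2 ratio of Csf1 to Csf1r (-0.0785 to 0.22) and the percent of Csf2rb2 (-0.82 to 1.68 percentage points). The cause was not tested. The log2 ratio of Csf2rb to Csf2ra ran from 0.18 to 0.60 and the summed pair from 0.30 to 0.68 (exact permutation p from 0.0238, without WT library 4, to 0.302). With genotype means removed, the correlation of Csf2 with CD8 T cell markers was -0.002, and that of Csf2ra with Csf2rb was -0.063. That of Csf1 with fibroblast markers was then 0.593 and that of Csf3r with neutrophil markers 0.435. With a pseudocount of 0.1, the correlation of Csf2 with CD8 T cell markers was -0.006. TPM gives no depth, which limits the low genes Il34, Csf2 and Csf3 most. Deviations of same-numbered mice had correlations of -0.148 to 0.074, so the numbers were not taken as pairs. Counts of pathway lists under each setting were an alternative chosen after seeing the data.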
